A study of Mus musculus with 6 samples.

Results

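A set of 10 nuclear genes that regulate the building of mitochondria and the expression of mitochondrial DNA (mtDNA) was followed in embryonic mouse lungs bred to lose *Rptor* (*Raptor*) from the epithelium. They were chosen by name, and all 10 were among the 23420 genes in the table. *Ppargc1a* and *Ppargc1b* encode coactivators, *Nrf1* and *Gabpa* DNA-binding factors, *Tfam*, *Tfb2m* and *Polrmt* the mtDNA transcription machinery, *Polg* the mtDNA polymerase, *Lrpprc* an RNA stability factor and *Cox10* an assembly enzyme of complex IV. RNA was sequenced from whole lungs taken at E11.5dpc (embryonic stage in days post coitus), in 3 pools of control lungs (Raptor f/+; ShhCre/+) and 3 pools of mutant lungs (Raptor f/f; ShhCre/+). Every animal in both groups thus carried ShhCre and at least 1 floxed *Rptor* allele, and each control lung kept an allele that Cre cannot delete. ShhCre acts in the lung epithelium, whereas each library was made from 3 or 4 whole lungs of 1 genotype, so mesenchyme, vessels and blood, in which ShhCre is not expected to act, contributed RNA to every value. The comparison asks whether RNA of the mitochondrial regulators differed once mTOR complex 1 (mTORC1), which needs the RPTOR scaffold protein, was removed from the epithelium.

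Mitochondria carry their own small circular genome, but nearly all the proteins that copy, transcribe and stabilise it are encoded in the nucleus. In outline, the coactivators bind NRF1, GABPA and nuclear receptors and raise transcription of nuclear genes for respiration, and these genes include *Tfam* and other parts of the mtDNA machinery. TFAM packs mtDNA and, with TFB2M, places the RNA polymerase POLRMT at the mtDNA promoters, after which the transcripts are processed, protected by LRPPRC and translated inside the organelle. mTORC1 is a nutrient-sensing kinase complex that has been tied to this system both through transcription and through translation of nuclear-encoded mitochondrial proteins, and only RNA was measured here.

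None of the 10 genes passed the test in mutant lungs. RNA levels are given as normalized counts, that is, the reads counted for a gene after scaling by 1 factor per library, and were compared with limma on log2(normalized count + 1). At a Benjamini-Hochberg adjusted p under 0.05, 0 of 10 regulators were called, against 0.501% of all 17168 tested genes (86 genes, with 0.186% called higher and 0.315% called lower in mutant lungs). At an unadjusted p under 0.05 the count was again 0 of 10, against 13.6% of all tested genes. Whole reads of 5 libraries, all but control pool 3, were also tested. There edgeR called 0 of 10 at the adjusted threshold, against 3.68% of the genes it tested. At an unadjusted p under 0.05 it called 1 of 10 (*Lrpprc*), against 18.7%. DESeq2 called 0 of 10 at either threshold, against 2.2% and 8.87% of the genes it tested. The adjusted p-values of the 10 genes ran from 0.428 for *Lrpprc* to 0.961 for *Tfam*. The number of genes called over the whole table rested on single pools, being 468 without control pool 3, 147 without control pool 2, 21 without mutant pool 2, 12 without mutant pool 1 and 1 without either control pool 1 or mutant pool 3. The number of regulators called was 0 in each of these fits.

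The mean log2 difference was below 0 for 9 of the 10 regulators, against 50.5% of all tested genes, and above 0 for *Tfam* only. The sizes were small. The median log2 fold change of the 10 genes was -0.06, against -0.00 for all tested genes, of which the 5th and 95th percentiles lay at -0.54 and 0.46. The 95% confidence intervals of all 10 log2 fold changes lay within a 1.5-fold change in either direction, and those of 7 genes, all but *Ppargc1a*, *Ppargc1b* and *Tfb2m*, within a 1.2-fold change. Leaving out 1 pool turned the sign for *Tfam*, *Ppargc1b*, *Gabpa*, *Polg* and *Polrmt*, so no direction is given for these 5 genes. The other 5 kept their sign, with ranges of -0.31 to -0.07 for *Ppargc1a*, -0.18 to -0.04 for *Tfb2m*, -0.13 to -0.05 for *Cox10*, -0.11 to -0.05 for *Lrpprc* and -0.09 to -0.02 for *Nrf1*.

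**Figure D1:**
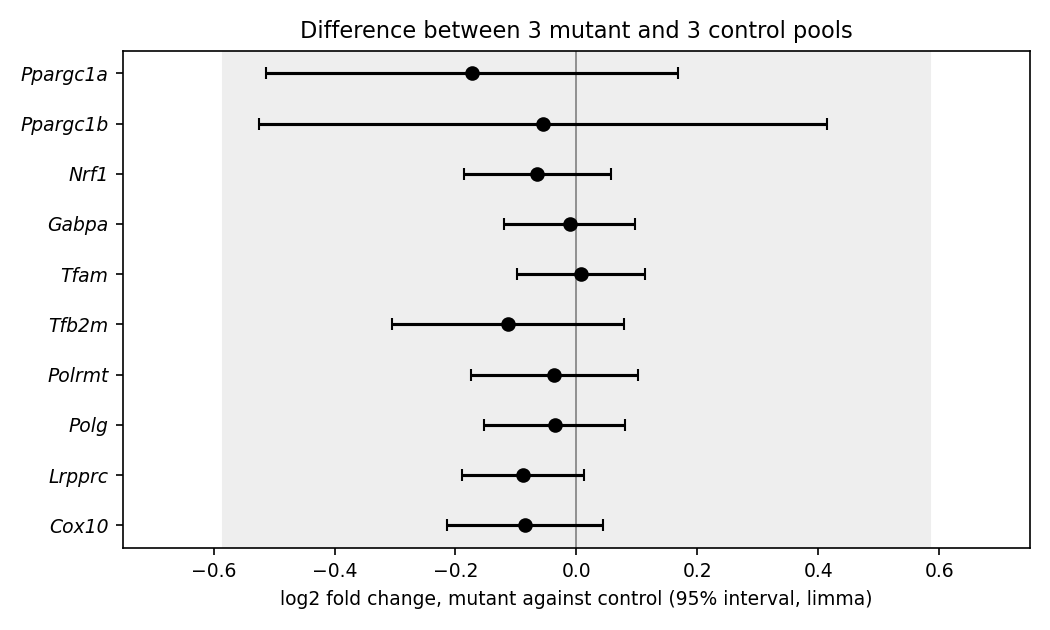
Log2 fold change (mutant against control, horizontal axis) of each of the 10 regulators, from limma on 3 mutant and 3 control pools. Points are estimates, bars are 95% confidence intervals and the grey band marks a 1.5-fold change in either direction. Every interval reaches across 0 and stays inside the band, and the 2 coactivator genes have the widest intervals.

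The coactivator genes were the least abundant and the least precisely measured of the set. *Ppargc1a* (chr5:51454250-51567726, minus strand, mm10) encodes the coactivator best known for driving mitochondrial biogenesis in muscle and brown fat. Its normalized counts were 115, 138 and 124 in control pools 1 to 3 against 96.0, 135 and 106 in mutant pools 1 to 3. The groups overlapped, since mutant pool 2 lay above control pools 1 and 3 and only the other mutant pools lay below all controls. The means were 126 ± 11.8 in control and 112 ± 20.4 in mutant lungs (SD, n = 3 each), and the log2 fold change was -0.17 (SE 0.15, 95% interval -0.51 to 0.17, limma adjusted p = 0.673). *Ppargc1b* (chr18:61298136-61400431, minus strand), the close relative of *Ppargc1a*, had 68.8, 88.8 and 67.6 normalized counts in the control pools against 57.2, 96.1 and 66.7 in the mutant pools. The highest and the lowest of its 6 values were both in mutant pools, and the log2 fold change was -0.06 (SE 0.21, 95% interval -0.53 to 0.41, limma adjusted p = 0.935). Sampling of reads alone would give coefficients of variation of 9.16% for *Ppargc1a* and 11.6% for *Ppargc1b* at these counts, and the coefficients seen were 9.41% and 15.9% among control pools and 18.1% and 27.6% among mutant pools. In percent, the 95% intervals of the difference ran from -29.9 to 12.4 for *Ppargc1a* and from -30.5 to 33.2 for *Ppargc1b*. Differences of these sizes are left possible by these pools. The log2 fold change of *Ppargc1a* was -0.31 without mutant pool 2, -0.07 without mutant pool 1 and -0.10 without control pool 2.

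Both coactivator genes were highest in pool 2 of each group, and their ratio within a library, which no size factor can alter, was compared as well. The log2 ratio of *Ppargc1a* to *Ppargc1b* was 0.74, 0.64 and 0.88 in the control pools against 0.75, 0.49 and 0.67 in the mutant pools. The groups overlapped and the means, 0.75 ± 0.12 and 0.64 ± 0.13 (SD, n = 3 each), differed by less than the spread (difference -0.12, two-sided exact permutation p = 0.5, where the smallest p that 3 pools against 3 allow is 0.1).

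The DNA-binding factors were far more abundant and were measured more tightly. *Nrf1* (chr6:30047988-30153458, plus strand) encodes nuclear respiratory factor 1, which binds promoters of many respiratory chain genes. It had 1521, 1684 and 1517 normalized counts in the control pools against 1555, 1459.9 and 1496 in the mutant pools. Control pool 2 stood above the other 5 pools, which lay close together in both groups, and the log2 fold change was -0.06 (SE 0.05, 95% interval -0.19 to 0.06, limma adjusted p = 0.656). It was -0.02 without control pool 2. *Gabpa* (chr16:84834925-84863779, plus strand) encodes the DNA-binding subunit of GABP, also called nuclear respiratory factor 2. Its counts were 2226, 2260.4 and 2460.1 in the control pools against 2336, 2256 and 2295 in the mutant pools. All mutant values lay between the lowest and the highest control value, and the log2 fold change was -0.01 (SE 0.05, 95% interval -0.12 to 0.10, limma adjusted p = 0.944).

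*Tfam*, *Tfb2m* and *Polrmt* encode the proteins that start transcription of mtDNA. *Tfam* (chr10:71225464-71238280, minus strand), for the factor that packs mtDNA and acts at its promoters, had 1457, 1401 and 1352 normalized counts in the control pools against 1434, 1408 and 1389 in the mutant pools. All 3 mutant values lay inside the control range. The means were 1403 ± 52.5 and 1410.1 ± 22.4 (SD, n = 3 each), and the log2 fold change was 0.01 (SE 0.05, 95% interval -0.10 to 0.11, limma adjusted p = 0.961). In percent, this interval runs from -6.60 to 8.22, the size of difference in whole-lung *Tfam* RNA that these 6 pools leave possible.

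*Tfb2m* (chr1:179528055-179546267, minus strand), for the factor that melts the promoter DNA, had 502, 576 and 539.7 normalized counts in the control pools against 545, 505 and 449 in the mutant pools. Mutant pool 3 was the lowest and control pool 2 the highest, while the other 4 pools were interleaved, and the log2 fold change was -0.11 (SE 0.09, 95% interval -0.30 to 0.08, limma adjusted p = 0.611). It was -0.04 without mutant pool 3, -0.06 without control pool 2 and -0.18 without mutant pool 1. *Polrmt* (chr10:79736123-79746581, minus strand), for the mitochondrial RNA polymerase, had 935, 1085 and 999.9 counts in the control pools against 1002, 971 and 966 in the mutant pools. The mutant values again lay inside the control range, with a log2 fold change of -0.04 (SE 0.06, 95% interval -0.17 to 0.10, limma adjusted p = 0.846).

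The balance between *Tfam* and *Polrmt* was also compared within each library. Their log2 ratio was 0.64, 0.37 and 0.43 in the control pools against 0.52, 0.54 and 0.52 in the mutant pools. The mutant ratios fell inside the control range and were closer to each other than the control ratios (0.48 ± 0.14 in control and 0.53 ± 0.01 in mutant lungs, SD, n = 3 each), and the difference of 0.04 was within the spread (two-sided exact permutation p = 0.7). It turned to -0.01 without control pool 2.

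*Polg* (chr7:79446231-79466362, minus strand) encodes the catalytic subunit of the polymerase that copies mtDNA. It had 1278, 1325 and 1297 normalized counts in the control pools against 1204, 1335 and 1268 in the mutant pools. The mutant pools held both its highest and its lowest value, and the log2 fold change was -0.04 (SE 0.05, 95% interval -0.15 to 0.08, limma adjusted p = 0.813).

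*Lrpprc* (chr17:84705247-84790789, minus strand) encodes a protein that keeps mitochondrial messenger RNAs stable. It was the only regulator, 1 of 10, whose groups did not overlap, against 20.2% of all tested genes. Its normalized counts were 2338, 2552 and 2388 in the control pools against 2295, 2292 and 2254 in the mutant pools. Every mutant pool lay below every control pool, as in 10.5% of all tested genes, while the lowest control pool was only slightly above the highest mutant pool. The means were 2426 ± 112 and 2280.3 ± 23.1 (SD, n = 3 each), and the log2 fold change was -0.09 (SE 0.05, 95% interval -0.19 to 0.01), with an unadjusted limma p of 0.0807 and an adjusted p of 0.428. The two-sided exact permutation p was 0.1, the smallest possible. Without control pool 2 the log2 fold change was -0.05, and its lowest adjusted p over 14 other fits was 0.235, with edgeR on 5 libraries.

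*Cox10* (chr11:63962627-64079468, minus strand) encodes the enzyme that makes haem O, a step towards the haem A of complex IV. It had 818, 856 and 839 normalized counts in the control pools against 835, 755 and 781 in the mutant pools. Mutant pools 2 and 3 lay below all controls, whereas mutant pool 1 lay among them. The means were 838 ± 19.1 and 790.3 ± 40.7 (SD, n = 3 each), and the log2 fold change was -0.09 (SE 0.06, 95% interval -0.21 to 0.04, limma adjusted p = 0.563). It was -0.05 without mutant pool 2.

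**Figure D2:**
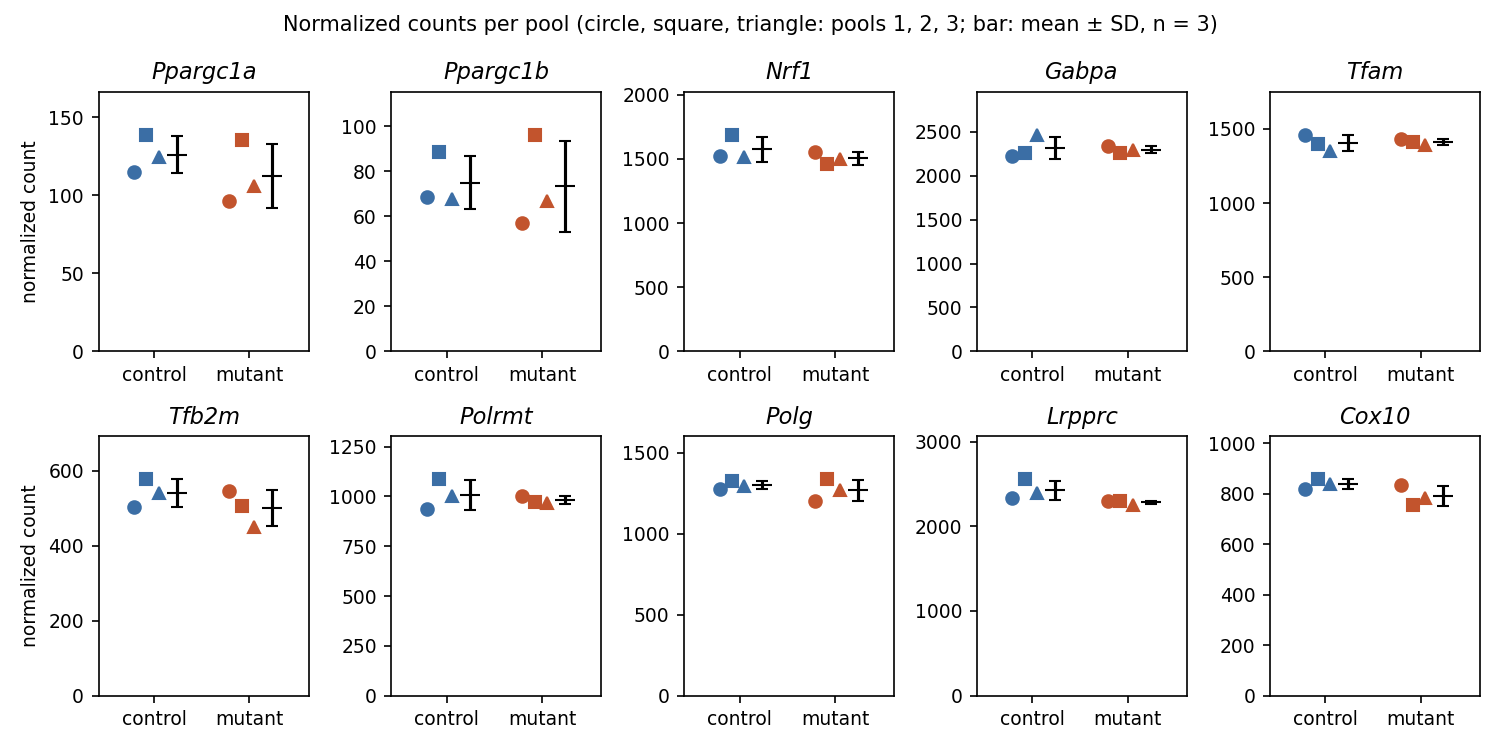
Normalized count (vertical axis, starting at 0, scale differing by panel) of each regulator in 3 control pools (blue) and 3 mutant pools (red). Circles, squares and triangles are pools 1, 2 and 3, and bars show the mean ± SD. The groups overlap for 9 genes, and for *Lrpprc* the mutant pools lie just below the controls.

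Several of the regulators were highest, or below their own mean, in the same pool. The first 2 pools described here are the extremes of the 6 on these counts, so the shares beside them are not a test. Control pool 2 held the highest of the 6 values for 6 of the 10 genes (*Ppargc1a*, *Nrf1*, *Tfb2m*, *Polrmt*, *Lrpprc* and *Cox10*), against 19.3% of all tested genes. In mutant pool 3, 0 of the 10 genes lay above their own mean over the 6 libraries, against 50.9% of all tested genes. Without control pool 2 the median log2 fold change of the 10 genes was -0.02, and over the other single pools left out it was between -0.10 and -0.04. Control pool 3 lay apart from the other 5 libraries on the first principal component of all genes, and without it the median was -0.09. Whether pool composition had a part in these shifts was not tested.

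To compare levels between genes, normalized counts were divided by the length of the longest transcript paired with a RefSeq mRNA, in kilobases. Over all 6 pools the level per kilobase was 536 ± 24.5 for *Lrpprc*, 462 ± 17.0 for *Gabpa* and 429 ± 21.7 for *Nrf1* (SD, n = 6). *Tfam* followed at 338 ± 8.71, *Cox10* at 279 ± 13.2, *Polrmt* at 264 ± 13.7, *Tfb2m* at 212 ± 18.1 and *Polg* at 164 ± 6.06. The pool values of *Gabpa* and *Nrf1* overlapped, as did those of *Cox10* and *Polrmt*, and the other neighbours in this part of the order did not overlap. A wide step separated *Polg* from the coactivator genes, *Polg* being 8.08-fold above *Ppargc1b*. *Ppargc1b* at 20.3 ± 4.08 and *Ppargc1a* at 18.4 ± 2.57 overlapped. Part of the order depends on the length used: with all merged exons as the length, *Gabpa* led the order, followed by *Tfam* and then *Lrpprc*, *Nrf1* moved to the seventh place at 150 per kilobase, and *Polg*, *Ppargc1b* and *Ppargc1a* kept the last places.

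**Figure D3:**
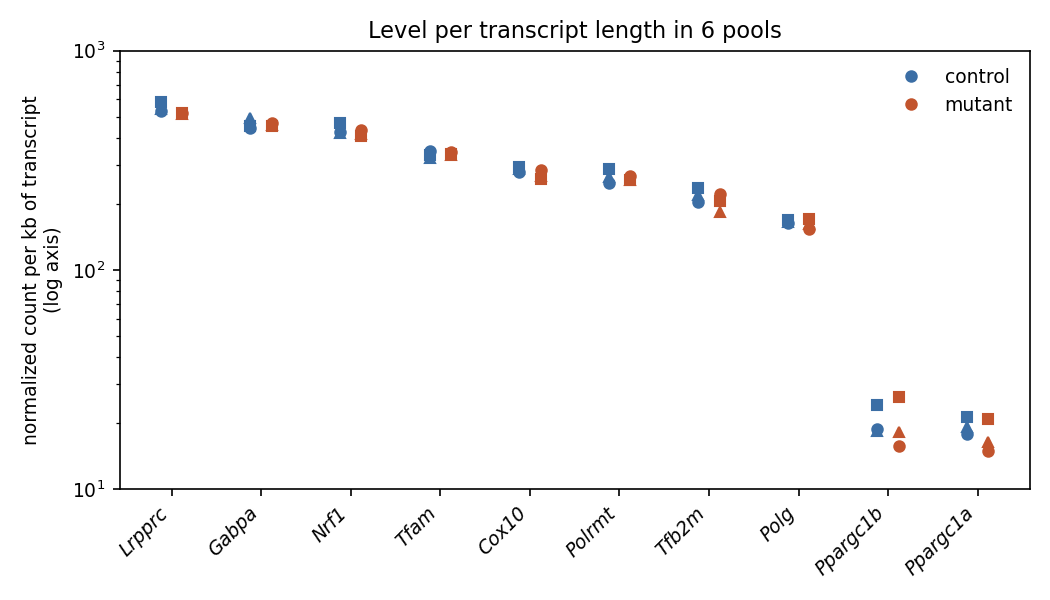
Normalized count per kilobase of transcript (log axis) of the 10 regulators in 3 control (blue) and 3 mutant (red) pools, ordered by the mean over all pools. Symbols mark pools 1, 2 and 3 as circle, square and triangle. The values of *Ppargc1b* and *Ppargc1a* lie between 14.9 and 26.3, and those of the other 8 genes between 154 and 581 per kilobase.

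Exons of 3 regulators share bases with a gene on the opposite strand, and whether counting used strand is not given in the sources used here. Of the exonic bases, 8.57% in *Polg* are shared with *Fanci*, 6.98% in *Gabpa* with *Atp5j* and 1.61% in *Cox10* with an antisense RNA gene, so reads in these stretches could have been dropped or assigned to the partner. The other 7 regulators shared no exonic base with another gene in GENCODE M21.

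GABP, whose DNA-binding subunit is *Gabpa*, recognises a purine-rich GGAA core, and this sequence was sought near the starts of the regulators themselves. RefSeq promoter sequences (GRCm38.p6) were matched for 9 of the 10 genes (all but *Ppargc1b*), with 10 promoters, and the 250 bases before each start were searched on both strands. The letters CCGGAAG were present for 5 of the 9 genes, namely *Tfam*, *Gabpa*, *Polg*, *Polrmt* and *Cox10*, and in 6.91% of all 32851 promoters. These 30-base windows, centred on the match and read 5′ to 3′ on the strand of the gene, are printed because the match is what the 5 promoters have in common. Capitals mark the match, which reads CTTCCGG where it lies on the other strand.
*Tfam*, chr10:71238074-71238103, minus strand: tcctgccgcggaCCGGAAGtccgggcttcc
*Gabpa*, chr16:84835019-84835048, plus strand: ggagggtaagtgCTTCCGGgtccctcagct
*Polg*, chr7:79466294-79466323, minus strand: ggaggacctcacCCGGAAGtccctctgcac
*Polrmt*, chr10:79746607-79746636, minus strand: accctaagagcgCTTCCGGcagtcgcagaa
*Cox10*, chr11:64079482-64079511, minus strand: gagcgctgggagCCGGAAGtgacaagagga

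The match lay 47 bases before the RefSeq start of *Tfam*, 93 before *Gabpa*, 38 before *Polg*, 43 before *Polrmt* and 27 before *Cox10*. In *Tfam* and *Polg* it also lay within an exon that GENCODE M21 starts further upstream. In *Gabpa*, which GENCODE M21 also starts further upstream, it lay within the gene but outside its exons. The consensus of NRF1, a GC-rich palindrome, was in 0 of the 10 promoters, against 3.74% of all promoters, and the YY1 letters AAGATGGCG were in that of *Gabpa* only, 68 bases before its start, against 0.606% of all promoters. The adjusted p-values of the 5 genes with the GABP letters ran from 0.563 for *Cox10* to 0.961 for *Tfam*, and those of the other 5 from 0.428 for *Lrpprc* to 0.935 for *Ppargc1b*. A match of letters is a description of the sequence and not a bound site.

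The wider pathway was examined with 6 lists that hold these regulators and their partners, 139 distinct tested genes in all. At an adjusted p under 0.05, limma on the 6 libraries called 0 of the 139. Other fits called 3 of them lower in mutant lungs, each by a small margin: *Dna2* (limma without control pool 3, and edgeR), *Tbrg4* (edgeR) and *Pprc1* (DESeq2), with edgeR and DESeq2 run on 5 libraries. At an unadjusted p under 0.05 there were 13 (4 higher and 9 lower in mutant lungs), which is 9.35% against 13.6% of all tested genes (6.67% higher and 6.89% lower). The median log2 fold change was -0.02, and 79 of the 139 were below 0, against 50.5% of all tested genes.

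Among coactivators and transcription factors, limma called 0 of 25, and the median log2 fold change was -0.06. *Pprc1*, a further coactivator of the same family, had 3304, 3771 and 3400.4 normalized counts in the control pools against 2937, 3231 and 3080.0 in the mutant pools. Its groups did not overlap, as in 20.2% of all tested genes, with a log2 fold change of -0.18 (SE 0.06, limma adjusted p = 0.203). DESeq2 on 5 libraries, without control pool 3, called *Pprc1* lower (log2 fold change -0.20, adjusted p = 0.0497). The nuclear receptor genes *Rxra* (log2 fold change 0.11, adjusted p = 0.246) and *Ppard* (0.13, adjusted p = 0.284) had the other unadjusted p-values under 0.05, with every mutant pool above every control pool. *Pprc1*, *Rxra* and *Ppard* were named for their low p, so the lack of overlap adds no support. In the list of mtDNA transcription factors, 0 of 12 had an unadjusted p under 0.05, and those nearest to it besides the regulators above were *Mrpl12*, a ribosomal protein also reported to bind POLRMT (-0.09), the elongation factor *Tefm* (0.10) and *Mterf3* (-0.06), with adjusted p-values of 0.579, 0.711 and 0.727.

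The lowest p-values of the pathway were in mtDNA replication and maintenance, where limma on 6 libraries called 0 of 25 genes. Of the 25, 2 had an unadjusted p under 0.05, against 13.6% of all tested genes. *Dna2*, a helicase and nuclease that works in both the nucleus and mitochondria, had 902, 958 and 974 normalized counts in the control pools against 769, 809 and 784 in the mutant pools. The groups did not overlap, at 944 ± 38.0 and 788 ± 19.9 (SD, n = 3 each), with a log2 fold change of -0.26 (SE 0.06, 95% interval -0.38 to -0.14, limma adjusted p = 0.0814). Without control pool 3 *Dna2* passed the threshold, with an adjusted p of 0.0442 by limma and 0.0435 by edgeR and a log2 fold change of -0.24 in both, whereas the adjusted p by DESeq2 on the same libraries did not pass. *Slc25a33*, a carrier of pyrimidine nucleotides into mitochondria, had 274, 268 and 252 in the control pools against 216, 228 and 195 in the mutant pools, again without overlap (log2 fold change -0.31, SE 0.09, adjusted p = 0.188). *Dna2* and *Slc25a33* were named for their low p, so the lack of overlap, seen in 20.2% of all tested genes, adds no support. *Fen1*, a flap nuclease of nuclear and mitochondrial replication, overlapped between groups (-0.10, adjusted p = 0.439).

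In the list of mitochondrial RNA processing and stability, to which *Lrpprc* belongs, 24 of 31 genes were below 0, against 50.5% of all tested genes. The median log2 fold change was -0.05. None of the 31 passed the adjusted threshold by limma on 6 libraries. Over all tested genes, 13.6% had an unadjusted p under 0.05 (6.89% lower), and the 4 of the 31 that did were all lower. They included *Ptcd3*, a mitoribosome-associated RNA-binding protein (log2 fold change -0.13, adjusted p = 0.226). *Supv3l1* and *Pnpt1*, the helicase and the nuclease of the mitochondrial RNA degradosome, had log2 fold changes of -0.13 and -0.12 (adjusted p = 0.324 and 0.340). The control and mutant values did not overlap for any of these 3 genes, as in 20.2% of all tested genes. These 3 were named for their low p, so the lack of overlap adds no support. A further gene, *Tbrg4*, which acts in mitochondrial RNA stability, was called lower by edgeR on 5 libraries (log2 fold change -0.20, adjusted p = 0.0402) and not by limma (-0.12, adjusted p = 0.450). Without control pool 2 the median of this list was -0.01, and without control pool 3 it was -0.09.

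The list of haem A synthesis and complex IV assembly, to which *Cox10* belongs, had a median of 0.03, and 0 of 24 tested genes had an unadjusted p under 0.05. The nearest were *Cox20* (log2 fold change -0.13, adjusted p = 0.378), *Coa5* (-0.08, adjusted p = 0.454) and *Cmc1* (0.20, adjusted p = 0.479), assembly factors with estimates on both sides of 0. *Pet117* and *Sco2* of this list could not be tested, and *Sco2* was listed at 0 in all libraries. Of 22 genes for fusion, fission and mitochondrial mass, 0 passed the adjusted threshold. RNAs of the mitochondrial chaperone *Hspd1* and of citrate synthase, *Cs*, were each at -0.10 (adjusted p = 0.326 and 0.335). That of the outer membrane channel *Vdac1* was at 0.12 (adjusted p = 0.359). Mitochondrial mass itself was not measured here.

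**Figure D4:**
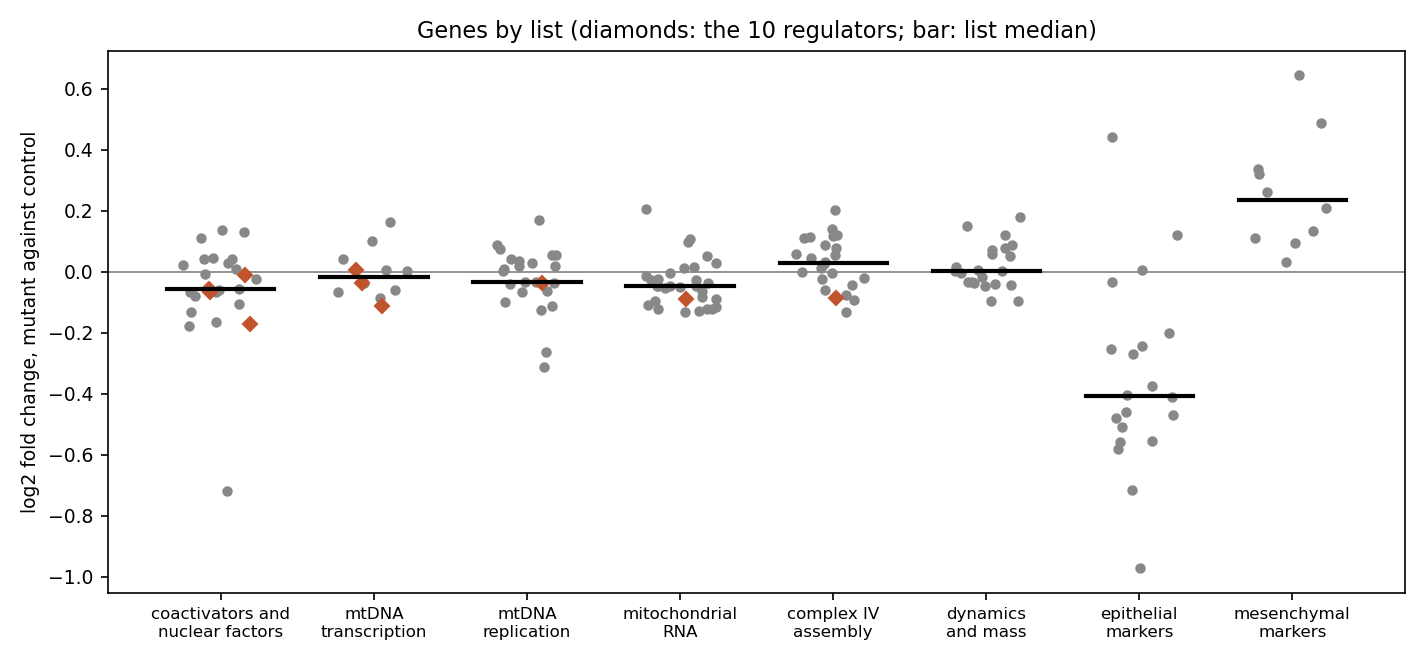
Log2 fold change (vertical axis, mutant against control, limma) of every tested gene of the 6 pathway lists and of the epithelial and mesenchymal marker lists. Grey points are genes, red diamonds are the 10 regulators and bars are list medians. The pathway lists centre between -0.06 and 0.03, while the marker medians lie at -0.41 for epithelium and 0.24 for mesenchyme.

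The targets of this machinery, the genes on mtDNA itself, are not analysed here, since 0 of 15 mtDNA-encoded genes searched for were listed in the table. The values above are therefore those of nuclear genes only.

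The targeted gene and markers of the cell types in the pools were examined beside these values. *Rptor* (chr11:119602905-119899576, plus strand) had 2126, 2193 and 2279 normalized counts in the control pools against 2023, 2137 and 2148 in the mutant pools (log2 fold change -0.06, limma adjusted p = 0.584). This count covers the whole gene in all cells of the lung, including exons outside the floxed part, and so does not check the deletion. Summed normalized counts of 20 epithelial markers were 26238 to 30607 in control and 22044 to 23547 in mutant pools, without overlap. Of the 20, 6 were called lower, against 0.315% of all tested genes. Among them was *Cdh1*, which had the lowest log2 fold change (-0.97, limma adjusted p = 0.0073). The log2 fold change was below 0 for 17, against 50.5% of all tested genes, and above 0 for 3, up to 0.44. At an unadjusted limma p under 0.05, 16 were lower and 1 higher, against 6.89% and 6.67% of all tested genes. The marker at 0.44 also belongs to the mesothelial list below. *Epcam* and *Nkx2-1*, which define lung epithelium, were well above 0 in every pool and had log2 fold changes of -0.27 and -0.25 (adjusted p = 0.300 and 0.218). In the 10 mesenchymal markers the sums were 89559 to 95687 in control and 109614 to 117900.0 in mutant pools. Of the 10, 4 were called higher, against 0.186% of all tested genes.

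Markers of other cell types were summed in the same way. The summed level of 10 endothelial markers was 13512 to 15388 in control and 15695 to 16311 in mutant pools, and that of 6 mesothelial markers 3947 to 4588 and 4719.5 to 5223, both without overlap. The 12 cardiac muscle markers, from tissue that can adhere to early lungs and is rich in mitochondria, summed to 1757 to 1946 in control and 1518 to 1635 in mutant pools, again without overlap, and 0 of 12 were called. Of the 12, 9 had a log2 fold change below 0, against 50.5% of all tested genes, and 3 above, from -1.54 to 0.09. At an unadjusted limma p under 0.05 there were 3, all lower, against 6.89% of all tested genes. Sums overlapped for erythroid cells (101111 to 131089 and 100512 to 125118), neural cells (2275 to 2445 and 1902 to 2406) and macrophages (2092 to 3063 and 2754 to 2891). In bulk libraries fewer cells of a type and less RNA per cell cannot be told apart, and the part that cell make-up had in the values of the regulators was not tested.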

How the data were processed

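RNA of 6 libraries (3 control and 3 mutant pools of 3 or 4 lungs, 11.5 dpc) had been sequenced on a BGISEQ-500. The submitters' processing notes name Trim Galore, HISAT2, featureCounts, DESeq2 and mm10, and versions, annotation and strand setting are not given in the sources used here. The authors deposited 1 table, whose signal values are normalized counts, reads per gene divided by 1 size factor per library. Its mean, log2 fold change, error, test statistic and p-value columns hold the authors' own comparison and were not used. In 27 rows the gene symbol had been turned into a date.

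Genes that reached a value of 1 in 3 or more libraries were tested with limma 3.58.1 (lmFit, eBayes with trend, R 4.3.3) on log2(normalized count + 1), without a replicate block, with Benjamini-Hochberg adjustment over all tested genes and a threshold of 0.05. The covariates of the study's own RNA-Seq test are not given in the sources used here. Values were whole multiples of 1 step per library in all libraries (tolerance 0.01 reads), giving 20197642 to 21276090 reads in the 5 libraries used for edgeR 4.0.16 and DESeq2 1.42.0. Control pool 3 was left out there because its step of 0.994 was too close to 1 for the rule that takes steps as reads. The intervals given come from the limma fit and rest on the spread between pools. The coefficients of variation from sampling of reads cover counting error only. No 2 replicates agreed within sampling noise, with chi-square per degree of freedom from 2.19 to 13.9. Single values were compared with two-sided exact permutation tests. The main limma fit, edgeR and DESeq2 were tested on simulated data, and the other alternatives were not.

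The 10 regulators and the gene lists were chosen with earlier results of these data known, so the lists were given no test. Named besides the 10 regulators and *Rptor* were, per pathway list, up to 3 other genes with the lowest unadjusted p, and up to 3 defining markers per cell type. *Sco2*, *Pet117*, *Tbrg4* and the partner genes on the opposite strand were named after their values or positions were seen. Older symbols were used for 16 genes. Nothing in the labels says that pools came from separate litters, and p-values measure the spread between these pools. Lengths and positions came from GENCODE M21 (mm10). Alternatives were other moderation, normalization, filters, pseudocount, a replicate block, leaving out each pool, edgeR and DESeq2. A length from merged exons was added after seeing the data.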

Additional observations from a re-analysis of the deposited data

How the results depend on the processing

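Of the 10 regulators, 0 were called under each of 14 alternatives, and of the 140 values this gave, 0 passed the threshold, 12 changed sign and the lowest adjusted p was 0.235. Signs turned for *Tfam* (-0.021 with edgeR and -0.019 with DESeq2, -0.019 to 0.035 without single pools), *Gabpa* (0.032 with edgeR and 0.033 with DESeq2, -0.039 to 0.033 without single pools), *Ppargc1b* (-0.27 to 0.10), *Polg* (-0.073 to 0.0015) and *Polrmt* (-0.088 to 0.019). All these values are log2 fold changes close to 0, and the cause was not tested. The median of the 10 regulators ranged from -0.10 to -0.02 without single pools and was -0.09 with edgeR and DESeq2. Of the pathway genes, of which 0 were called, *Dna2* was called with edgeR and without control pool 3, *Tbrg4* with edgeR and *Pprc1* with DESeq2. The genes called over the whole table (86) numbered 8 by limma without the trend, 545 with edgeR and 416 with DESeq2 on 5 libraries, and 1 to 468 without single pools. The 5 libraries lack control pool 3, and limma without that pool called 468, so the edgeR and DESeq2 numbers differ from 86 in pools as well as in method. List medians were 0.020 (edgeR) and 0.011 (DESeq2) for coactivators and transcription factors (-0.072 to 0.013 without single pools), -0.090 (edgeR) for mitochondrial RNA processing (-0.087 to -0.011 without single pools), and, without single pools, -0.033 to 0.0046 for mtDNA replication and 0.0071 to 0.065 for complex IV assembly. Without single pools the log2 ratio of *Tfam* to *Polrmt* differed between groups by -0.012 to 0.12, and the summed markers by -0.085 to 0.10 for erythroid cells, -0.16 to 0.0084 for neural cells and -0.015 to 0.26 for macrophages. By merged exons the level per kilobase was 277 for *Lrpprc*, 405 for *Gabpa*, 150 for *Nrf1*, 317 for *Tfam*, 212 for *Polrmt*, 185 for *Tfb2m* and 119.6 for *Polg*. With the replicate number as a block 71 genes and 0 regulators were called, and the block changed no other call of a regulator. Same-numbered pools correlated at -0.00, 0.19 and 0.04 over 14584 genes in their deviations from the group means. Differently numbered pools ran from -0.18 to 0.16. The 3 deviations of a group are tied to each other, so these values cannot decide whether same-numbered pools were related. The planned sum of mtDNA-encoded genes was not run, since none is listed. Where a test left 1 group with 2 pools, the spread was pooled over all pools. With 3 pools per group, differences that lie within the intervals given remain possible.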
